A study of Mus musculus with 10 samples.

Results

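In CD71+Ter119-/lo pro-erythroblasts of Mtf2-null fetal liver (FL), 259 H3K27me3 peaks lay within 5 kb of the transcription start site (TSS) of a protein-coding gene. They were selected from the 1407 peaks called in that library against its IgG control, as the peaks that overlapped 5 kb on either side of a TSS of the GENCODE M1 annotation on NCBIM37, and they touched the windows of 284 genes. The peak calls therefore chose the members, and their tag counts, scores and fold enrichments are given as a description with no test. Every one of the 259 carried a false discovery rate (FDR) of 100%. The peak caller estimates this rate by exchanging ChIP and IgG, and gives 100% where the exchanged comparison returns at least as many peaks at that score.

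H3K27me3 is the mark that Polycomb repressive complex 2 (PRC2) places on silent developmental genes, where it typically covers CpG-rich promoters of transcription factors and signalling genes. Mtf2, also named Pcl2, is an accessory protein of PRC2 that binds unmethylated CpG-rich DNA and helps to bring the complex there. In the erythroid lineage the cells pass from CD71+Ter119-/lo pro-erythroblasts to CD71+Ter119+ erythroblasts while genes of other lineages are kept silent.

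The study sorted FL cells of E14.5 embryos by CD71 and Ter119, and compared H3K27me3 in Mtf2-null (Pcl2 -/-) and WT (Pcl2 +/+) cells of both fractions with Mtf2 itself in WT cells. All embryos had a C57Bl/6 background, the mutant came from EUCOMM-targeted ES cells passed through chimeras, and the loss was constitutive and so not limited to erythroid cells. Each library was made from 500000 cells, with an antibody from Millipore for H3K27me3, from Genway for Mtf2, and IgG from Santa Cruz as control. The methods state replicates of 2, but 1 library per condition was analysed here, so there is no spread between replicates and no difference between libraries was tested. The opening of the submitters' design text speaks of H3K4me3, whereas the labels of the samples give H3K27me3.

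The libraries differed in depth. The Mtf2-null CD71+Ter119-/lo H3K27me3 library had 37026535 unique tags, and its IgG control had 39667267 unique tags among 93760420, which is 42.3%. In the other 3 IgG libraries the unique share was between 58.1% and 91.8%, and the WT CD71+Ter119-/lo H3K27me3 library held 18945784 unique tags. The part of these differences in the FDR or in the overlaps below was not tested. Wilson intervals (95%) given below are over counts of peaks or genes in 1 list and cover counting error only.

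The members fell into groups by the sequence under their summits. Of the 259 members, 76 (29.3%, 95% interval 24.1 to 35.2) held, within 250 bases of the summit, a run of 20 or more bases in which purines and pyrimidines strictly alternated with no A next to a T. In 16 members (6.18%, 3.84 to 9.80) the whole peak had a CpG island-like composition, with a GC content of at least 50% and a ratio of observed to expected CpG of at least 0.6. Only 2 members, at C77370 and Mei1, met both definitions. The remaining 169 met neither. Both definitions were chosen after the sequences had been seen.

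The alternating runs are shown in capitals for the 6 members with the highest fold enrichment among those with a run, in 121 bases centred on the summit (NCBIM37, forward strand, 5′ to 3′).
Gstm7 (chr3:107739414-107739534): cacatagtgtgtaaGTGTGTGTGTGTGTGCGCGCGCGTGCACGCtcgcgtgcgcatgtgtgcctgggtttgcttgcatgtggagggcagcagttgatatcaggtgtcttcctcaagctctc
Wdr66 (chr5:123724930-123725050): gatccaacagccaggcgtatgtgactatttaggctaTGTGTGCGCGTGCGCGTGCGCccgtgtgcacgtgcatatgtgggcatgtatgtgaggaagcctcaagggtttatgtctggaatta
Orm1 (chr4:63008486-63008606): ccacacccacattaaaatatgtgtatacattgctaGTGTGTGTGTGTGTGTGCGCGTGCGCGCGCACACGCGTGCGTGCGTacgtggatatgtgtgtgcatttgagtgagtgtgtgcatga
Ccdc63 (chr5:122589531-122589651): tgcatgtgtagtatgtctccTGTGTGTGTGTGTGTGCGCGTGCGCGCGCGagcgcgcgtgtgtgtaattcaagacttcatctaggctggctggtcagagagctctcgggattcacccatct
Nxn (chr11:76209585-76209705): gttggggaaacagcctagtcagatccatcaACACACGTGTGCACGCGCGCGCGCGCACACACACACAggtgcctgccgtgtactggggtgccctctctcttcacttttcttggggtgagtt
Galr2 (chr11:116141683-116141803): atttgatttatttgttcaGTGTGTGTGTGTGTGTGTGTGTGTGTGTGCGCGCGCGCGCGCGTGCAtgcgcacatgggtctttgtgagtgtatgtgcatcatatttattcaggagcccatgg
In each of these windows CA or TG steps passed directly into CG steps, and the run lay at or near the summit. The run was 30 bases long at Gstm7, 21 at Wdr66, 46 at Orm1, 30 at Ccdc63, 37 at Nxn and 47 at Galr2. Gstm7 encodes a glutathione S-transferase, Orm1 the acute-phase plasma protein orosomucoid, Nxn the redox protein nucleoredoxin and Galr2 a galanin receptor. The windows lay in introns of Wdr66, Orm1 and Nxn, within 1 kb of a TSS of Ccdc63 and Galr2, and upstream of Gstm7.

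CpG island-like members are shown by the 5 highest-scoring among those that overlapped a WT H3K27me3 peak and whose window held no annotated UTR, with every CG in capitals.
C77370 (chrX:101395556-101395676): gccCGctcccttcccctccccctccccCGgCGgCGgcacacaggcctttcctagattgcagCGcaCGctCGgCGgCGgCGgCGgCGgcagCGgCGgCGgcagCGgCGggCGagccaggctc
Prrt4 (chr6:29129288-29129408): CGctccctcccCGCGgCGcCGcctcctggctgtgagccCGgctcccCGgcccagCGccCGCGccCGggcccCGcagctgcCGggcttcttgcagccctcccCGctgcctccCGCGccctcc
Agap2 (chr10:126516714-126516834): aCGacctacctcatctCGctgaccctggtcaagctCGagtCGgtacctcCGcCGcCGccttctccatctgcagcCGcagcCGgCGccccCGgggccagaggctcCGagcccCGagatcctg
Unc45b (chr11:82746120-82746240): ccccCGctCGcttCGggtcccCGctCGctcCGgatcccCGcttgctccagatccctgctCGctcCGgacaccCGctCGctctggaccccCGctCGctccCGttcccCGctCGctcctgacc
Pou3f1 (chr4:124335381-124335501): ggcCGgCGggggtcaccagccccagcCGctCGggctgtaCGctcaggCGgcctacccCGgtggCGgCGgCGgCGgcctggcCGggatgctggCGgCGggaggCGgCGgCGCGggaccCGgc
Each of these 5 windows lay within 1 kb of a TSS and held between 13 and 19 CG dinucleotides in 121 bases. Pou3f1 encodes a POU-domain transcription factor, Agap2 a GTPase-activating protein and Unc45b a myosin chaperone of muscle. The C77370 peak also held an alternating run of 47 bases outside the window shown.

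For contrast, a CpG island-like peak that was called in WT erythroblasts at one of the members' genes, and that no member overlapped, is shown with the same marking.
N28178, WT CD71+Ter119+ peak (chr4:42929848-42929968): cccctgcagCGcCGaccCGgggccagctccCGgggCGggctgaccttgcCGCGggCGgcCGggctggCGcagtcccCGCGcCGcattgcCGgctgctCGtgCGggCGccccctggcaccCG
This WT peak held 115 tags, or 3.83 tags per 1000000 unique tags of its library (RPM), over 1890 bases, and its window held 18 CG dinucleotides. The Mtf2-null member at the same gene lay elsewhere, at chr4:42948288-42949183, with 32 tags, and held an alternating run of 25 bases.

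A member outside both groups is shown because it led the list by score. The highest-scoring member lay 1880 bases upstream of Elovl3, a fatty acid elongase, and its window held 3 CG dinucleotides, in capitals.
Elovl3 (chr19:46204447-46204567): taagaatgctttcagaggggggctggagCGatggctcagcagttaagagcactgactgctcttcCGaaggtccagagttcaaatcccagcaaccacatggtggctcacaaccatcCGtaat
This summit had neither an alternating run nor a CpG-rich composition.

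Alternating runs were concentrated at the summits. The motif GCGCGCGC, which is its own reverse complement and can be part of an alternating run, occurred within 250 bases of the summit of 47 members (18.1%, 13.9 to 23.3), of which 45 also had an alternating run of 20 bases or more. In windows of the same 501 bases centred on all 69963 distinct TSS the motif occurred in 5.58%, and in 279851 windows centred 2 and 4 kb on either side of those TSS it occurred in 0.467%. Alternating runs of 20 bases or more occurred in 2.41% of the TSS windows and 5.04% of the windows beside them. A stretch of 10 CA dinucleotides on either strand was present at 38 members (14.7%, 10.9 to 19.5), against 1.90% of the TSS windows and 4.58% of the windows beside them. Such a stretch is itself 20 alternating bases, so all 38 members had an alternating run by definition. Members exceeded these genomic shares for all 3 features, which overlap and are not separate observations.

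**Figure D1:**
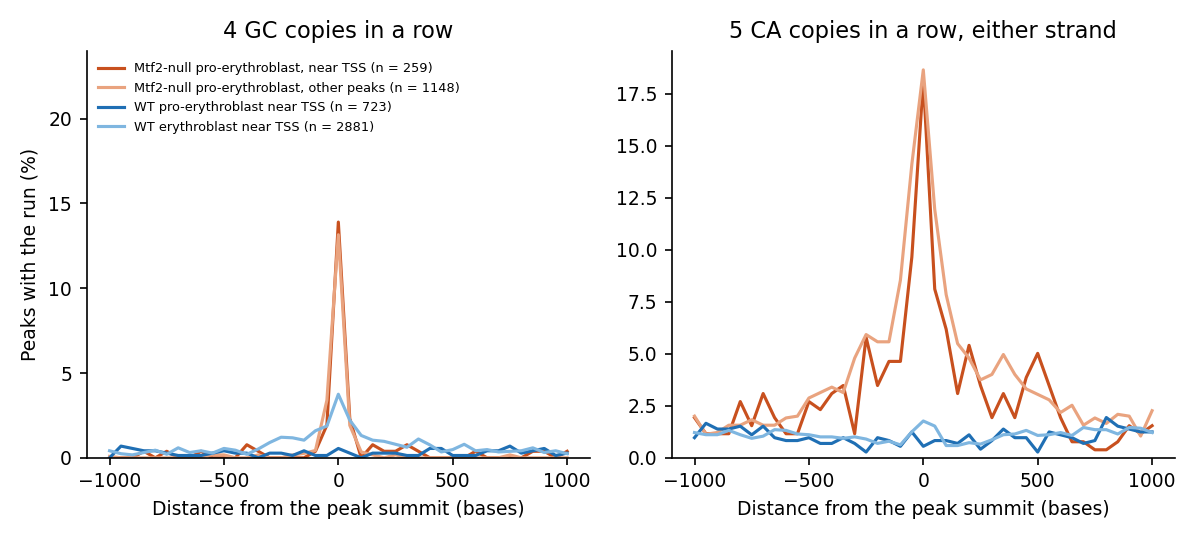
Share of peaks (%) with 4 GC dinucleotides in a row (left) or 5 CA dinucleotides in a row on either strand (right), in steps of 50 bases against the distance from the summit in bases, for 4 sets of peaks. In the members the left share was 13.9% at the summit and 0.386% or less at 200 bases from it, and in WT pro-erythroblast peaks near a TSS it was 0.553% at the summit.

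The same runs were found in the rest of the list but seldom in the WT list of the same stage. The other 1148 peaks of the Mtf2-null pro-erythroblast list, which lay beyond 5 kb from a TSS, had alternating runs in 328 cases (28.6%, 26.03 to 31.3), a share whose interval overlapped that of the members. Among 723 WT pro-erythroblast H3K27me3 peaks near a TSS the share was 3.32% (2.24 to 4.89), among 2881 WT erythroblast peaks 4.58% (3.88 to 5.41), and among 345 Mtf2-null erythroblast peaks 5.22% (3.33 to 8.10). The WT erythroblast peaks held GCGCGCGC in 13.2%, and in 7.22% of those that were not CpG island-like. The members that were not CpG island-like held it in 18.1% (13.8 to 23.4). The WT pro-erythroblast library differed from that of the members in depth, IgG control and genotype, the Mtf2-null erythroblast library in depth, IgG control and stage, and the WT erythroblast library in all of these, so the sources of a difference between lists cannot be told apart.

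Members with an alternating run had higher fold enrichments than the others. Their fold ranged from 4.46 to 16.41 with a median of 9.14, against a median of 6.38 in the 183 members without one. Of the 38 members with a fold of at least 10, 32 (84.2%, 69.6 to 92.6) had a run, and of the 221 under 10 the share was 19.9% (15.2 to 25.7). The 6 exceptions at high fold were Zfp763, Mll3, Kpna7, 9030425E11Rik, Sult4a1 and Plekhh1. Members with a run were also longer, with a median of 899 bases against 735, and held a median of 32 tags against 27. Fold and tags were among the values that chose the members, so these differences describe the list.

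**Figure D2:**
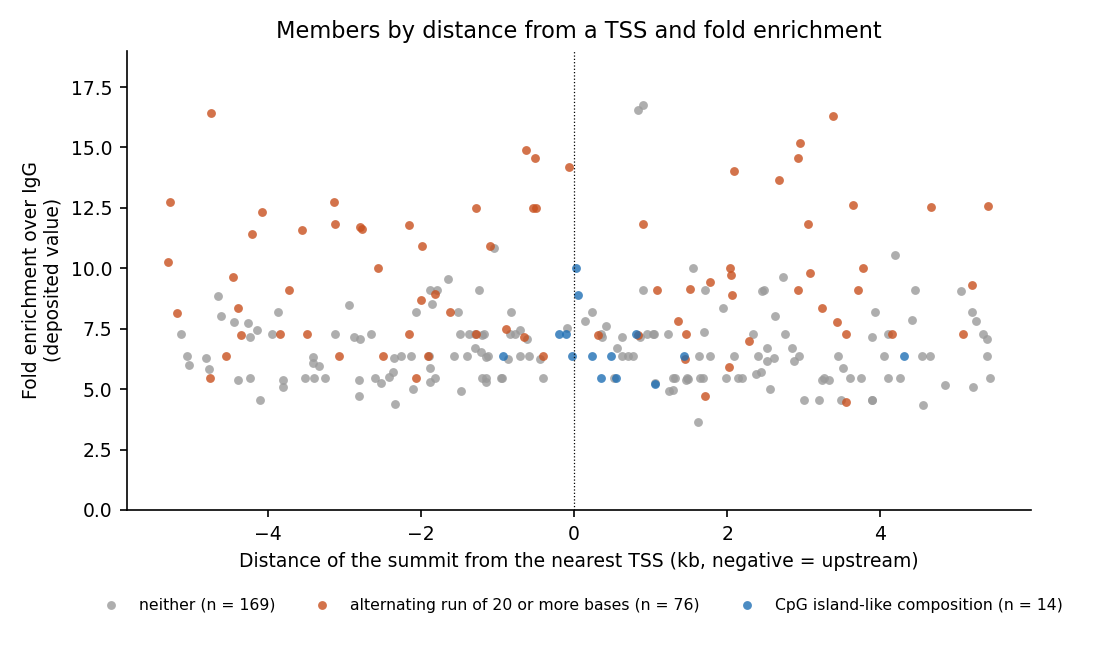
Deposited fold enrichment over the caller's background (labelled over IgG) against the distance of each of the 259 summits from the nearest TSS (kb, negative upstream). Points are coloured by sequence group, with members that met both definitions drawn as alternating runs. Points with an alternating run (n = 76) spread over the whole window and hold most values of 10 and above, while CpG island-like points (n = 14) sit mainly near 0 kb.

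The longest alternating run measured 104 bases and lay at Lypd2, with 31 tags and an 11.85-fold enrichment. It was followed by 73 bases at the antiviral gene Oas2, 67 at March2, 66 at Usp12 and 64 at Limk1, the LIM kinase. Apoc2, an apolipoprotein gene, had a 56-base run with the summit 62 bases upstream of its TSS, 45 tags and a fold of 14.18. Runs were also present at Eomes, a T-box regulator (46 bases), at Etv6, an ETS-family regulator of blood stem cells (45 bases), and at Nfix, a nuclear factor I gene (41 bases).

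CpG island-like members lay close to start sites. Their summits were within 1 kb of a TSS in 12 of 16 cases (75.0%, 50.5 to 89.8), against 51 of all 259 members (19.7%, 15.3 to 24.96) and 11 of the 76 members with an alternating run (14.47%, 8.28 to 24.1). The 16 peaks lay at Klhdc8a, Grin3b with ORF61, Agap2, Unc45b, Hsf5, 4933428G20Rik, Plekhh1, Ankrd9, Tnfaip2, Mei1, Lbx1, Gmeb2, Pou3f1, Mnx1, Prrt4 and C77370. Lbx1 and Mnx1 are homeobox genes, Grin3b encodes a glutamate receptor subunit and Hsf5 belongs to the heat shock factor family. Their tags numbered 24 to 45, and their fold ran from 5.22 to 10.03 with a median of 6.38, against 7.14 over all members. Their median GC content was 70.5% and their median CpG ratio 0.791, against 44.4% and 0.175 in the 169 members of neither group. Over all 259 members the medians were 45.0% and 0.226. They were 49.1% and 0.336 in WT pro-erythroblast peaks near a TSS, and 61.6% and 0.689 in WT erythroblast peaks near a TSS. CpG island-like peaks made up 17.7% (15.1 to 20.7) of the WT pro-erythroblast set and 63.0% (61.2 to 64.7) of the WT erythroblast set. None of 345 Mtf2-null erythroblast peaks near a TSS had that composition, a count that still allows 0.870%.

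**Figure D3:**
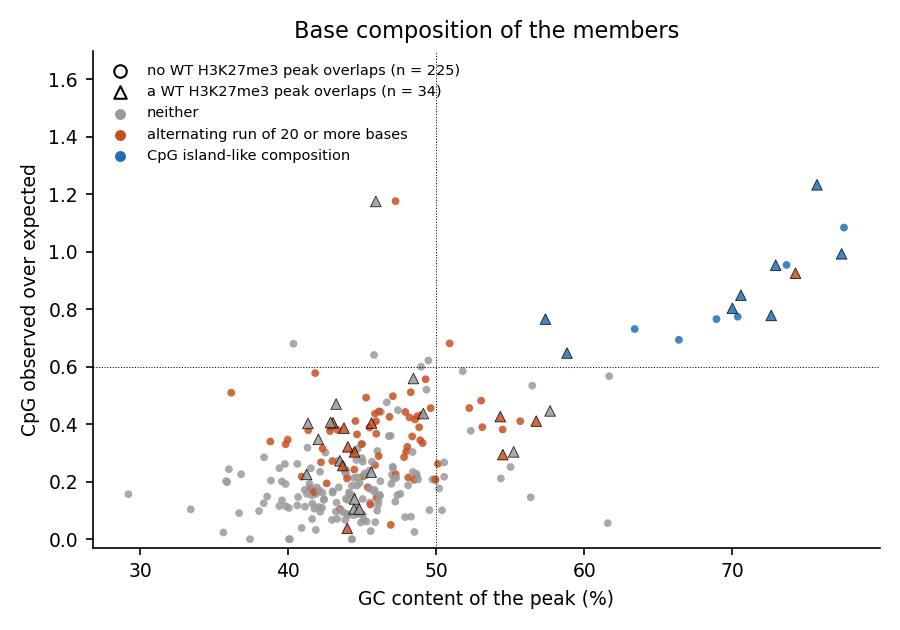
Ratio of observed to expected CpG against the GC content (%) of each member peak, coloured by sequence group (members that met both definitions are drawn as alternating runs), with triangles for the 34 members that a WT H3K27me3 peak overlapped. Dotted lines mark 50% GC and a ratio of 0.6, and 9 of the 16 members beyond both lines are triangles.

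Most members rested on few tags. The number of tags in a peak ranged from 24 to 1167 with a median of 29, and 216 of 259 peaks held under 40. The score, which is minus 10 times the log10 of the caller's p, ran from 50.03 to 108.82 with a median of 56.1, close to the calling limit of 50 that a p of 1e-05 sets, and 171 members scored under 60. The 1148 other peaks of the list had nearly the same values, with medians of 29 tags, a score of 55.8 and a fold of 7.13 against 7.14 in the members. Members together covered 0.235 Mb and held 9550 tags, or 0.0258% of the unique tags of the library.

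The fold enrichments were stepped. In 133 of the 259 members (51.4%, 45.3 to 57.4) the fold was a whole multiple, within 0.01, of 0.912, the value of 1 tag of height over the genome-wide background at this depth and at the caller's fragment length of 80 bases. The whole numbers ran from 4 to 18 with a median of 7, and folds of 5.47, 6.38 and 7.29 (heights of 6, 7 and 8 tags) were given to 29, 33 and 30 members. The caller's formula gives such a fold where the IgG library sets no local background above the genome-wide level. This held for 13 of 16 CpG island-like members (81.2%, 57.0 to 93.4) and 34 of 76 members with an alternating run (44.7%, 34.1 to 55.9).

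The 10 highest-scoring members were led by Elovl3 (score 108.82, 46 tags, 9.12-fold), which alone exceeded 100. Hsf5 followed with 94.65 and 45 tags, then C77370 with 91.23, Mid1 with 90.97, Plac1l with 89.95, Svop with 88.64, Gm20547 with 86.22, Galr2 with 85.10, Sdsl with 84.85 and Gm853 with 84.74. Svop, related to synaptic vesicle proteins, and Sdsl, a serine dehydratase-like enzyme, had alternating runs of 44 and 31 bases, as had Galr2 and C77370. The peak at Mid1, a ubiquitin ligase gene on the X chromosome, was unlike the others in size: it spanned 15801 bases at chrX:166407504-166423304, held 1167 tags and had the lowest fold of all members, 3.65.

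After Mid1 the most tags were held by Smok2b, a sperm motility kinase gene, with 175, and by the 2 peaks of Gm853 with 131 and 75, followed by the peak shared by Ganc and Tmem87a with 58. The 4 members with more than 60 tags all had folds of 5.24 or less. High fold was found at other loci: after the zinc-finger gene Zfp763 at 16.74 came Mll3, a histone H3K4 methyltransferase, with 16.55, Gstm7 with 16.41, Wdr66 with 16.31 and Orm1 with 15.18.

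By position, 125 summits lay upstream and 134 at or downstream of the nearest TSS. Summits lay within 1 kb of a TSS in 51 members, in introns in 111, upstream or between genes in 85, in UTRs in 6 and in other exon sequence in 6. The peak itself covered a TSS in 19 members. The nearest summits were those of Plekhh1 at 25 bases downstream, Klhdc8a at 32 upstream, Gmeb2 at 49 downstream, Apoc2 at 62 upstream, and Slc27a5, a liver acyl-CoA synthetase, at 98 upstream. They were followed by 4933428G20Rik (104 upstream), Strada (143 downstream), Tnfaip2 (203 upstream), the cardiac homeobox gene Nkx2-5 (227 downstream) and Prrt4 (236 downstream). Of these 10 peaks, 6 were CpG island-like.

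At the limit of 5 kb, the last members by the distance of their nearest base to a TSS were Dao at 4892 bases with 42 tags, Rif1 at 4907 with 27 and Creg1 at 4974 with 24. Just outside it were peaks near Gm595 at 5021 bases with 29 tags, Gtf2a1 at 5117 with 52 and Rasal1 at 5144 with 35. Tags did not separate the sides of this limit. By chromosome, 29 members lay on 5, 22 on 11 and 21 on 4, and none on 14, where the list had 38 peaks and the annotation 950 protein-coding genes. In all, 234 peaks touched 1 gene, 22 touched 2 and 3 touched 3 or more. Fam20a, Gm20547 and Gm853 had 2 member peaks each.

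Overlap with WT pro-erythroblast H3K27me3 was small. A WT peak shared at least 1 base with 8 members (3.09%, 1.57 to 5.98), and with 1.07% of all 1407 peaks of the list. Seen from the WT list, a member overlapped 8 of its 723 peaks near a TSS (1.11%, 0.562 to 2.17). The 8 members lay at Efna2, Plekhh1, Gp1bb, Pcdhgc5, Gdf6, Pou3f1, Mnx1 and Sox6. Efna2 encodes an ephrin ligand, Gp1bb a platelet adhesion receptor subunit, Gdf6 a BMP-family ligand, Pcdhgc5 a protocadherin and Sox6 an SRY-box factor of erythroid and other cells. The Mtf2-null peaks held 0.648 to 0.837 RPM and the WT peaks 0.845 to 1.11 RPM, so the ranges did not overlap. The calling limits favour this order without fixing it. The smallest WT pro-erythroblast peak near a TSS held 16 tags, or 0.845 RPM, and the smallest member 24 tags, or 0.648 RPM, so nothing is read from it.

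The pairs differed in how closely they coincided. At Efna2 the summits were 5 bases apart, with 29 tags in the Mtf2-null peak and 19 in the WT peak, and the member had an alternating run of 39 bases. At Plekhh1 they were 44 bases apart, with 24 and 18 tags. At Sox6 the peaks shared 61 bases and their summits were 1078 bases apart, and at Pou3f1 they shared 314 bases with the summits 517 apart. Each of the 8 WT partners carried an FDR between 10.13% and 14.77%.

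More members were overlapped by WT erythroblast H3K27me3 peaks. They numbered 29 (11.2%, 7.91 to 15.6), against 5.76% of all peaks of the list, and 4.53% (3.47 to 5.89) of the 1148 peaks beyond 5 kb. Members overlapped 31 of the 2881 WT erythroblast peaks near a TSS (1.08%, 0.759 to 1.52). Among the 16 CpG island-like members 8 were overlapped (50%, 28.0 to 72.0), among the 76 with an alternating run 9 were (11.8%, 6.36 to 21.0). The WT lists differ in length, and with as many top-scoring peaks taken from each as the Mtf2-null list holds, 6.56% of the members were overlapped in WT erythroblasts and 0% in WT pro-erythroblasts.

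In pairs whose member was CpG island-like the WT erythroblast peak was the broader and held more tags. The Unc45b member held 27 tags (0.729 RPM) in 696 bases, and the WT peak 517 tags (17.2 RPM) in 4139 bases. The Pou3f1 member held 31 tags (0.837 RPM) and the WT peak 252 (8.38 RPM) in 4082 bases. At Lbx1 the values were 27 tags (0.729 RPM) and 154 tags (5.12 RPM), at Agap2 28 tags (0.756 RPM) and 111 tags (3.69 RPM), and at Prrt4 30 tags (0.810 RPM) and 99 tags (3.29 RPM). At these 5 genes the WT erythroblast peak thus covered the member entirely and exceeded it in RPM.

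In pairs at alternating runs the RPM of the member and of the WT peak lay closer together. At Nxn the Mtf2-null peak held 40 tags (1.08 RPM, 14.58-fold) and the WT erythroblast peak 35 tags (1.16 RPM, 19.09-fold), with summits 7 bases apart. At Frmd4a the values were 44 tags (1.19 RPM) and 56 tags (1.86 RPM) with summits 13 bases apart, and at Cnfn 27 tags (0.729 RPM) and 40 tags (1.33 RPM) with summits 2 bases apart. At Mak they were 38 tags (1.03 RPM) and 36 tags (1.20 RPM) with summits 28 bases apart, and at Nrg2, a neuregulin gene, 33 tags (0.891 RPM) and 53 tags (1.76 RPM) with summits 34 bases apart. At these 5 genes both libraries thus had a peak at the same place. The other run pairs had summits 33 (Ndufa9), 44 (Trim66) and 336 (Kcng1) bases apart. Close summits were not particular to runs. In the CpG island-like pairs the gaps were 11 bases at Plekhh1, 14 at Pou3f1, 198 at Lbx1 and 272 at Klhdc8a. They were 306 bases at Agap2, 1152 at Prrt4 and 1436 at Unc45b. Over all 8 pairs whose member had a run alone, the WT peak held 0.839 to 1.98 times the RPM of the member, with a median of 1.298, and over all 7 whose member was CpG island-like alone it held 3.65 to 23.6 times, with a median of 4.88. These ratios are of whole peaks and not per kb. The WT peaks were 797 to 1270 bases long in the run pairs and 1524 to 4139 in the CpG island-like pairs. Peak width thus enters the difference between the groups, and its share was not computed. At C77370, which met both definitions, it held 1.75 times the RPM.

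Over all 31 pairs with WT erythroblast peaks, the WT peak held more RPM in 27 and more RPM per kb in 29, where the smallest WT erythroblast peak near a TSS held 0.699 RPM and the smallest member 0.648. Members at Plekhh1, Pou3f1 and Sox6 were overlapped in both WT lists. The Mid1 peak was matched by a WT erythroblast peak of 14032 bases with 825 tags (27.5 RPM, against 31.5 RPM in the member), and a region of that size was thus called in both genotypes. At Hes5, a repressor downstream of Notch, 1 member of 40 tags touched 3 WT erythroblast peaks.

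**Figure D4:**
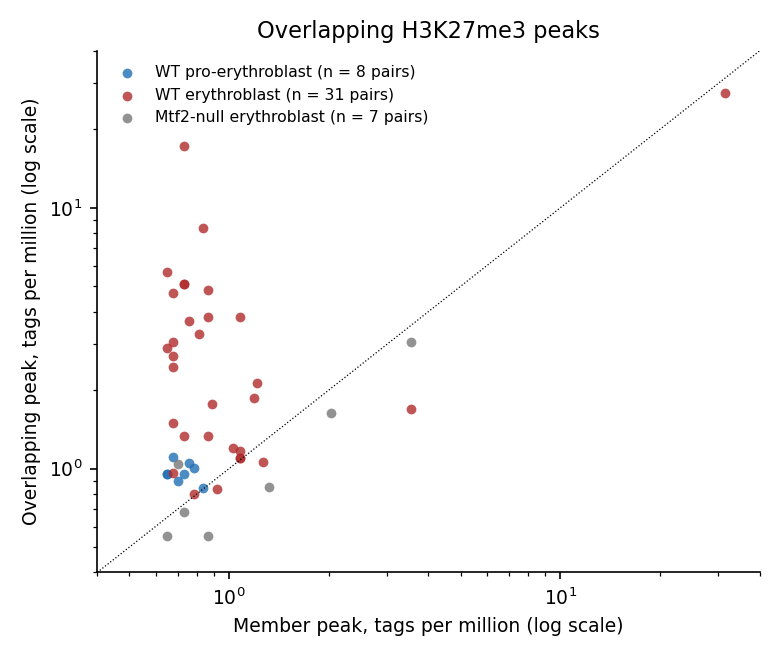
RPM (tags per 1000000 unique tags) in each member peak (horizontal, log scale) and in the H3K27me3 peak of another list that overlapped it (vertical, log scale), with 1 point per pair and a dotted line of equality. The 8 WT pro-erythroblast points sit between 0.845 and 1.11, all above the line, where the smallest value of that list near a TSS was 0.845. Of 31 WT erythroblast points, 27 lie above the line.

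Few members were found in the Mtf2-null erythroblasts. A peak of that list overlapped 7 members (2.70%, 1.32 to 5.47), against 3.13% of all peaks of the list, at Rbbp5, C1qtnf2, Efcab6, Vwa5b2, Nrap and, with 2 peaks, Gm853. Rbbp5 is a subunit of H3K4 methyltransferase complexes and Nrap a muscle anchoring protein. At Rbbp5 the peaks held 49 tags (1.32 RPM) and 57 tags (0.849 RPM), and at Nrap 26 tags (0.702 RPM) and 70 tags (1.04 RPM). Nrap was the only 1 of the 7 pairs with more RPM in the erythroblast peak, and 0 of 7 had more RPM per kb there. The calling limits favour this order. The smallest Mtf2-null erythroblast peak near a TSS held 35 tags (0.521 RPM) and the smallest member 24 tags (0.648 RPM), so nothing is read from it. None of the 16 CpG island-like members was among the 7, a count that still allows 18.8%, and none of the 76 with an alternating run, which still allows 3.95%.

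WT Mtf2 peaks rarely met the members. In pro-erythroblasts they overlapped 2 (0.772%, 0.212 to 2.77), against 1.63% of all peaks of the list, at Hsf5 with 25 Mtf2 tags and at Klraq1 with 25. In erythroblasts they overlapped 1 (0.386%, 0.0682 to 2.15), against 0.142%, at Gm5150. In all, 42 members (16.2%, 12.2 to 21.2) were overlapped by a peak of any of the other 5 lists. The same share was not computed for all peaks of the list, so 16.2% is not read as high or low.

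By gene, more was shared. A gene counted when 1 of its TSS had a peak within 5 kb, and 1.28% of 22225 protein-coding genes had a member. Of the 284 genes, 39 (13.7%, 10.2 to 18.2) also had a WT pro-erythroblast H3K27me3 peak, where 3.3% of all genes had one, and 89 (31.3%, 26.2 to 36.95) had a WT erythroblast peak, where 11.6% had one. At a score of at least 60 in both lists the shares were 4.12% of 97 genes against 1.35% of all genes for WT pro-erythroblasts, and 27.8% against 9.27% for WT erythroblasts. As shares of the WT lists without that limit, the shared genes were 5.32% of 733 genes and 3.47% of 2567 genes. Both WT stages marked 29 of the 284 genes, and 185 (65.1%, 59.4 to 70.4) had a peak in neither. The shares of all genes with a peak in both or in neither were not computed. With only 3.3% and 11.6% of all genes marked in the WT lists, most genes had a peak in neither. The 65.1% is therefore not read as a trait of the members. Because genes with several TSS have larger windows and neighbours share them, these shares are descriptions.

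For the Mtf2-null erythroblast list 9 of the 284 genes were shared (3.17%, 1.68 to 5.91), where 1.64% of all genes had a peak, namely C1qtnf2, Efcab6, Gm853, Hk1, Nrap, Rbbp5, Usp12, Vwa5b2 and Zfp763. WT Mtf2 peaks lay at 29 in pro-erythroblasts (10.2%, 7.20 to 14.3, against 8.46% of all genes) and at 8 in erythroblasts (2.82%, 1.43 to 5.46, against 1.51%). For all 3 lists the background lay inside the interval or, for the null erythroblasts, just below it.

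**Figure D5:**
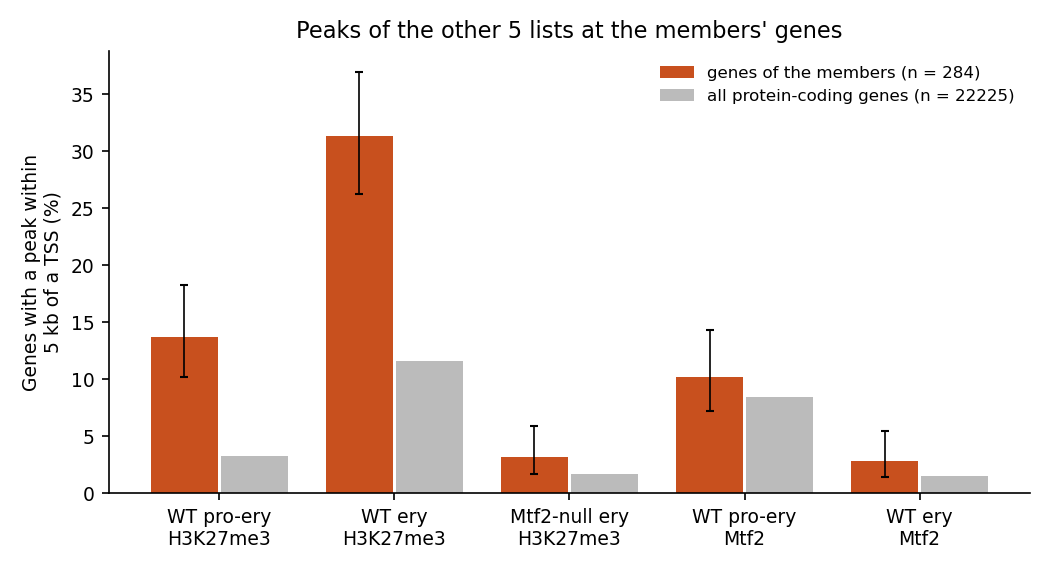
Share (%) of the 284 genes of the members (orange, with 95% Wilson intervals) and of all 22225 protein-coding genes (grey) with a peak of each of the other 5 lists within 5 kb of a TSS (ery, erythroblast). The shares are 13.7% against 3.3% for WT pro-erythroblast H3K27me3 and 31.3% against 11.6% for WT erythroblast H3K27me3.

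A shared gene was mostly not a shared peak. Overlapping peaks accounted for 9 of the 39 genes with the WT pro-erythroblast list and 35 of the 89 with the WT erythroblast list. At Lhx1, a LIM-homeobox gene, the member held 24 tags and lay 1517 bases from the nearest WT pro-erythroblast peak (24 tags, 1.27 RPM) and 2161 bases from the nearest WT erythroblast peak (117 tags, 3.89 RPM). At Lhx6 the member held 28 tags over an alternating run of 33 bases, and lay 6397 and 2065 bases from the WT peaks. At Nfix the distances were 27084 and 2761 bases. At these 3 genes the member and the WT mark thus occupied separate stretches of the same gene's windows.

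Several other genes of developmental regulators had a member beside a WT erythroblast peak without overlap. At Hoxd11 the gap was 535 bases, with 25 tags in the member and 113 tags (3.76 RPM) in the WT peak. At Eomes it was 3119 bases with 25 and 70 tags, at Pax9 429 bases with 29 and 26 tags, and at Nkx2-5 288 bases with 25 and 24 tags. At Dlx2 18 bases separated the peaks, with 29 and 58 tags, and at Gata6 957 bases, with 27 and 42 tags. The WT peak was CpG island-like at Hoxd11, Eomes, Pax9, Dlx2 and Gata6, with CpG ratios of 0.861, 0.780, 0.653, 0.616 and 0.630. Over the whole peak none of the 6 members was. The member's ratio was 0.241 at Hoxd11, 0.476 at Pax9 and 0.360 at Dlx2. At Gata6 it was 0.641, above that of the WT peak, and the member missed the definition by its GC content of 45.8%. At Nkx2-5 the member's ratio was 0.534 and the WT peak's 0.184. Over 1 kb around its summit the Nkx2-5 member met both limits, with 60.7% GC and a ratio of 0.613.

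Across lists of blood genes the members' counts are read beside the 1.28% of all genes that had a member, which in lists of this size amounts to few genes or none. None of 38 annotated genes of the erythroid programme had a member, and of 29 stem, myeloid and lymphoid regulators 1 had, Etv6 (35 tags, 7.49-fold, summit 890 bases upstream), where the WT pro-erythroblast list marked 1 and the WT erythroblast list 15. No member lay at markers of hepatocytes, B and T cells, endothelium or megakaryocytes, with 4 genes in each list, and of 4 macrophage markers Emr1 had one, with 44 tags and the summit 2371 bases upstream. Peak lists hold no expression, so the sorted fraction could not be checked by its markers.

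Polycomb and Wnt genes carried no member, which at a share of 1.28% of all genes is near the background for lists of this size. Of 32 genes of Polycomb complexes and H3K27 demethylases none had one, where WT pro-erythroblasts marked 1 and WT erythroblasts 8, and of 39 Wnt receptors, antagonists and effectors none had, where WT pro-erythroblasts marked 2 and WT erythroblasts 15. The 19 Wnt ligands and 10 Frizzled receptors had none either, against 1 and 1 in WT pro-erythroblasts and 12 and 7 in WT erythroblasts. Forkhead genes had 0 of 42 and T-box genes of the Tbx series 0 of 13, against 5 and 4 in WT pro-erythroblasts and 22 and 6 in WT erythroblasts. These counts of 0 show no shortage against all genes.

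Families of homeobox and other patterning genes had 1 or 2 members' genes each, beside 1.28% of all genes. Of 39 Hox genes 2 had a member, Hoxc8 (27 tags, 4.73-fold) and Hoxd11 (25 tags, 6.38-fold), against 2 in WT pro-erythroblasts and 30 in WT erythroblasts. Of 8 Lhx genes 2 had one, Lhx1 and Lhx6, against 7 in WT pro-erythroblasts and 8 in WT erythroblasts. Gata6 was 1 of 6 Gata genes (27 tags), Pax9 1 of 9 Pax genes (29 tags, 6.54-fold) and Sox6 1 of 18 Sox genes (25 tags, 5.47-fold). In these 3 families WT pro-erythroblasts marked 3, 2 and 5 genes and WT erythroblasts 5, 5 and 10.

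Large families held few members. Olfactory receptors had 1 of 1087, Olfr279, whose peak (32 tags) held an alternating run of 61 bases. Vomeronasal receptors had 0 of 202 and 0 of 117. Among 340 Zfp genes 4 had a member, Zfp346, Zfp369, Zfp748 and Zfp763, with 28, 42, 57 and 46 tags, and among 335 solute carriers 6 had, among them Slc14a1, Slc24a6, Slc26a11, Slc27a5 and Slc43a2, with 25 to 35 tags. Slc14a1 encodes the urea transporter of red cells, and its peak held 25 tags in an intron. These are 1.18% and 1.79% of each family, beside 1.28% of all genes.

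Single members of smaller families were the potassium channel Kcng1 (25 tags), the glutamate receptor Grin3b (29 tags), the cadherin Cdh1 (25 tags, 5.47-fold), the keratin Krt24 (27 tags) and the protocadherins Pcdhb22 and Pcdhgc5 (24 tags each). Klrg2 (29 tags) and Klraq1 (24 tags) entered a family by the start of their symbols. By symbol root, the roots with most genes were Gm (15 of 2024), Fam (7 of 252), Slc (6 of 353), Zfp (4 of 367) and, tied, Ccdc (3 of 142) and Gpr (3 of 95).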

How the data were processed

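Per the labels and the file headers, the authors mapped reads to mm9 with Bowtie2 2.2.3, and MACS 1.3.7 called the peaks, each ChIP against the IgG of its fraction and genotype, at a p of 1e-05, a band width of 300, a model fold of 32 and a tag size of 25. The deposited tag count is the number of reads in a peak and is not normalized. The deposited score is minus 10 times the log10 of p, and the deposited FDR is a percent. The deposited fold enrichment is a ratio of ChIP to the caller's background. That background is the genome-wide level where the IgG library sets no higher local one. Whether replicates were pooled is not given in the sources used here.

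Positions count from 1 on NCBIM37 (mm9). TSS, exons, UTRs and gene symbols came from GENCODE M1, without the mitochondrial genome (22225 symbols, 69963 TSS). Sharing 1 base made an overlap, and RPM are tags per 1000000 unique tags of the same ChIP library. Composition was read over the whole peak, and runs within 250 bases of the summit. Overlap and window steps were tested on simulated intervals. With 1 library per condition no test across libraries was possible, and shares carry 95% Wilson intervals, with a limit of 3 counts where a count was 0. One sequence and 1 gene that the naming rule selected are not reported here. The share of masked repeats could not be computed because the reference sequence holds no lower-case bases.

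The members, gene lists and alternatives were chosen with earlier results of these data known, and the run and CpG definitions after the sequences were seen. Genes were named as the highest in score, fold and tags, the nearest to a TSS, those overlapped by another list (the 10 highest-scoring where more), those with 2 peaks, those at the 5 kb limit, and those of the gene lists and of the 5 largest symbol roots. Other genes, such as those named for the length of their run or beside WT peaks, were chosen after their values were seen. Sequences were read with pysam 0.24.0 and tables with pandas 2.3.3 and numpy 2.4.6. Wilson intervals were computed with scipy 1.17.1 and plots drawn with matplotlib 3.10.9, all under Python 3.11.15.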

Additional observations from a re-analysis of the deposited data

How the results depend on the processing

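Of 91 values recomputed under alternatives, 63 stayed within 1.5 times the count or within the 95% interval of the reported value, and the causes of the other 28 shifts were not tested beyond what each setting changes by construction. A window of 1 kb left 74 peaks and 77 genes, and one of 10 kb gave 416 peaks and 507 genes. A score of at least 60 left 88 peaks and 97 genes. Within 1 kb the share of genes with a Mtf2-null erythroblast peak was 1.299%, of peaks overlapped by WT erythroblast H3K27me3 18.9%, by WT erythroblast Mtf2 0%, and of CpG island-like peaks 17.6% and peaks with an alternating run 21.6%, with medians of 46.0% GC and a CpG ratio of 0.274. With only the most upstream TSS, 1.55% of genes had a Mtf2-null erythroblast peak. At a score of at least 60, 4.12% of genes had a WT pro-erythroblast peak, 1.14% of peaks were overlapped by one and 0% by WT erythroblast Mtf2, the median CpG ratio was 0.257, GCGCGCGC was present in 27.3%, an alternating run in 40.9% and CpG island-like composition in 10.2%. Counting peaks within 1 kb raised the share with WT erythroblast H3K27me3 to 18.1%. With as many top-scoring peaks in the other list as in the Mtf2-null list, the overlaps fell to 0% for WT pro-erythroblast H3K27me3 and both Mtf2 lists, 6.56% for WT erythroblast and 0.772% for Mtf2-null erythroblast H3K27me3. Among settings added after the data were seen, 6 GC copies in place of 4 left 10.4%. No paired analysis was possible because the labels give no replicate numbers and each condition had 1 library.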

Other observations

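Beyond the windows of protein-coding genes, the rest of the Mtf2-null pro-erythroblast list had higher maxima of fold, score and run length than the members. The maxima of tags and peak length were in the members, both at Mid1. A larger set can reach higher extremes, and the medians of the other peaks and the members were 7.13 and 7.14 for fold and 9 and 9 bases for run length. The 1148 other peaks had folds of up to 35.97, scores of up to 177.95 and alternating runs of up to 434 bases, while their CpG island-like share was 2.003% (95% Wilson interval 1.34 to 2.99). GCGCGCGC lay near the summit of 17.3% of them (15.3 to 19.6). Taking whole lists, it was found at 1.16% of WT pro-erythroblast, 13.3% of WT erythroblast and 0.553% of Mtf2-null erythroblast H3K27me3 peaks, and at 0.795% and 0.339% of WT Mtf2 peaks in pro-erythroblasts and erythroblasts. These are values of 1 library each, with no test.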
